A study of Mus musculus with 167 samples.

Results

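The Rogan group consisted of 4 mice, named C3, E3, E5 and J2, out of 119 mice in the series. They were taken by strain name from the deposited table of estimated counts. The table holds 6 Rogan tumours, of which 5 were used, 1 each from C3, E3 and E5 and a pair from J2. The Rogan mice were set against 71 mice, with 100 tumours, of 16 other strains (Boon, CC035, CC040, CC044, CC046, CC053, CC059, CC060, CIS, KAV, LAT, LOX, MEE, TAS, VUX and YID). All 4 Rogan mice survived longer than the median of the study, as did 48 of the other mice, and 23 of the other mice did not.

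The series profiled 167 tumours from 35 strains by RNA-seq of whole tumours. Rogan mice were bred from a Rogan male and a MexTAg female, and each other strain from a male of its own line and a MexTAg female, so every mouse had a MexTAg mother. The males' lines belong to the Collaborative Cross, a panel of inbred mice that recombine the genomes of several founders. The MexTAg transgene places the SV40 large T antigen, a viral oncoprotein that inactivates p53 and Rb, under the mesothelin promoter. Every mouse, Rogan or other, received 2 injections of 3 mg of Wittenoom crocidolite asbestos into the peritoneum, a month apart, and no therapy. The labels give neither age nor sex, and nothing states whether the mice of a strain were littermates.

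Mesothelioma arises from mesothelial cells, the thin epithelial lining of the body cavities. Its tumours range from epithelioid growths that keep keratins and mesothelin to spindle-shaped, collagen-rich growths in which these markers are low. A whole-tumour sample mixes tumour cells with fibroblasts, vessels, leukocytes and any attached organ, and in such a sample fewer cells of a type and less RNA per cell cannot be told apart.

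The 5 Rogan libraries held 20062474 to 27056814 counts each, and all libraries compared, Rogan and other, held 11138491 to 35399287. Rogan C3 Tu2 was left out because its strain was in doubt. Over the 300 genes that varied most between strains its correlation was 0.926 with CC046 and 0.475 with Rogan, while the other 5 Rogan libraries correlated with the remaining Rogan libraries at 0.908 to 0.963 and with no other strain above 0.682. Picking genes for that variation widens the contrast between strains. Over 13024 genes C3 Tu2 correlated with the Rogan libraries used at 0.7963 (C3 Tu1) to 0.8606 (E5). Those from different mice correlated with each other at 0.7967 to 0.9055. The doubtful strain of 5 further libraries, of LOX, LAT, MEE and CC059, led to their exclusion too. Genes of another tissue took over 1% of the counts in 16 of the libraries compared, 1 of them from Rogan (J2 Tu2, skeletal muscle genes, 1.08%). No pair of libraries was identical. Each mouse counts as 1 replicate, and the 2 tumours of J2 were summed.

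Rogan tumours differed from the other tumours in few genes past the adjusted threshold. Of 19628 genes tested, 43 were higher in Rogan (0.219%) and 5 were lower (0.0255%) with edgeR at an adjusted p of 0.05. In limma-voom 102 were higher (0.52%) and 3 lower (0.0153%), and in DESeq2 23 were higher (0.117%) and 68 lower (0.346%). The genes that rose included Mid1, a ubiquitin ligase of microtubules, Nxn, the dopamine receptor gene Drd4, the acid-sensing channel gene Asic3, the chemokine gene Ppbp, the metalloproteases Adamts16 and Adamts17, and the ligand gene Wnt16. Of the genes that fell, H2-Q2, a class I histocompatibility gene, was the 1 that is neither a predicted gene nor a pseudogene by its symbol. The median log2 fold change of all genes tested was -0.17, and the median over genes of the difference between group medians was -0.01.

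Mid1 (ENSMUSG00000035299, chromosome X, 169685199 to 170005736, plus strand, GRCm38) had the lowest p of the genes that are not pseudogenes. The level was 216 CPM in C3, 164 in E3, 901 in E5 and 372 in J2, against a lowest value of 20.9, a median of 61.1 and a highest value of 266 CPM in the other mice. Only 1 of the 71 other mice, CC059-A2, stood above the lowest Rogan mouse. The log2 fold change was 2.59 ± 0.27 (SE, 4 Rogan and 71 other mice; edgeR, adjusted p = 1.26e-10). On the log2 CPM scale Rogan averaged 8.37 ± 1.08 (SD, n = 4), against 6.56 ± 0.60 (SD, n = 3) in CC046, the highest of the other strains. In limma-voom and DESeq2 Mid1 also passed (adjusted p of 1.17e-06 and 1.47e-09), and it passed without any 1 of the Rogan mice, with log2 fold changes of 1.88 to 2.87.

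In laboratory mice Mid1 spans the boundary of the pseudoautosomal region, the stretch of sequence that X and Y share. The pseudogene Mid1-ps1 (ENSMUSG00000095134, chromosome Y, 90753057 to 90763485, plus strand) resembles it, and reads of the pair can be split between them, so the count of either is uncertain. Mid1-ps1 stood at 5.16 CPM in C3, 2.36 in E3, 4.88 in E5 and 28.4 in J2, against 0, 0.978 and 5.63 CPM as the lowest, median and highest of the other mice. Its log2 fold change was 3.06 ± 0.50 (edgeR, adjusted p = 4.47e-05), and without J2 it was 1.76 (adjusted p = 0.527).

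A pair of genes rose moderately and in all 4 Rogan mice relative to the other median. Nxn (ENSMUSG00000020844, chromosome 11, 76257198 to 76399140, minus strand), which encodes nucleoredoxin, a redox protein that regulates Wnt signalling, stood at 198 CPM in C3, 143 in E3, 53.4 in E5 and 237 in J2, against 6.25, 45.02 and 129 CPM as the lowest, median and highest of the other mice. E5 lay among the other mice and the other 3 Rogan mice lay above all of them. The log2 fold change was 1.66 ± 0.35 (edgeR, adjusted p = 0.00893), and the call was lost without C3 (adjusted p = 0.187) or J2 (adjusted p = 0.247) and with the 6 doubtful libraries included (adjusted p = 0.0594). Gmppa (ENSMUSG00000033021, chromosome 1, 75435930 to 75443179, plus strand), a subunit in GDP-mannose synthesis that was singled out after its values were seen, stood at 109, 109, 56.8 and 64.8 CPM in C3, E3, E5 and J2, against 26.4, 42.1 and 92.7 CPM in the other mice. Its log2 fold change was 0.90 ± 0.21 (edgeR, adjusted p = 0.0219), and the call was lost without C3 (adjusted p = 0.533) or E3 (adjusted p = 0.284).

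Several genes were high in C3 and E3 together and near the other mice in E5 or J2. Drd4 (ENSMUSG00000025496, chromosome 7, 141292006 to 141296464, plus strand) stood at 45.1 CPM in C3 and 38.8 in E3, with 0.84 in E5 and 7.24 in J2, against 0, 0.73 and 15.8 CPM as the lowest, median and highest of the other mice. Asic3 (ENSMUSG00000038276, chromosome 5, 24413392 to 24417835, plus strand) stood at 130 and 49.9 CPM in C3 and E3, with 4.25 in E5 and 1.58 in J2, against 0.169, 0.819 and 46.2 CPM. In both genes C3 and E3 exceeded all 71 other mice, while E5 and J2 did not.

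Adamts16 (ENSMUSG00000049538, chromosome 13, 70727802 to 70841811, minus strand), a secreted metalloprotease, stood at 239 CPM in C3, 60.1 in E3, 2.36 in E5 and 5.84 in J2, against 0, 1.32 and 61.4 CPM. Adamts17 (ENSMUSG00000058145, chromosome 7, 66839735 to 67153171, plus strand), of the same family, stood at 24.8, 7.19, 1.26 and 0.555 CPM in these mice, against 0, 0.446 and 23.8 CPM. For both proteases C3 alone lay above every other mouse. Their log2 fold changes were 3.44 ± 0.83 and 2.92 ± 0.68 (edgeR, adjusted p of 0.0407 and 0.0286), and those of Drd4 and Asic3 were 3.38 ± 0.72 and 3.66 ± 0.79 (adjusted p of 0.00923 and 0.0106).

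The calls of these 4 genes were lost in several alternatives. In DESeq2 the adjusted p was 0.065 for Drd4, 0.0738 for Asic3, 0.0991 for Adamts16 and 0.0789 for Adamts17, and in limma-voom Adamts17 alone of the 4 missed the threshold (0.0765). Without C3 the adjusted p was 0.462 for Drd4 and 0.832 for each of Asic3, Adamts16 and Adamts17 (edgeR), and without E3 it was 0.164, 0.0534, 0.0872 and 0.0631 for Drd4, Asic3, Adamts16 and Adamts17. Against only the 48 other mice above median survival, Drd4 and Asic3 passed (adjusted p of 0.0215 and 0.00602), and Adamts16 and Adamts17 did not (0.126 and 0.17). With the 6 doubtful libraries included none of the 4 passed, with adjusted p of 0.0741 for Drd4, 0.139 for Asic3, 0.426 for Adamts16 and 0.353 for Adamts17. Adamts16 also missed the threshold without CC040, CC044, CC053, LAT, TAS or VUX, with adjusted p of 0.0502 to 0.065.

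Ppbp (ENSMUSG00000029372, chromosome 5, 90768518 to 90770063, plus strand) encodes a chemokine stored in platelets. It stood at 17.9 CPM in C3, 22.8 in E3, 1.68 in E5 and 10.02 in J2, against 0, 0.475 and 31.9 CPM in the other mice, of which 1 exceeded all Rogan mice. The log2 fold change was 3.21 ± 0.73 (edgeR, adjusted p = 0.0202), and it was lost without C3, E3 or J2 (adjusted p of 0.251, 0.279 and 0.0562) and against the other mice above median survival (0.133). With the first tumour of each mouse alone its adjusted p was 0.485, and with the doubtful libraries it was 0.0594. Wnt16 (ENSMUSG00000029671, chromosome 6, 22288227 to 22298522, plus strand), a secreted Wnt ligand, was high in E3 alone at 33.1 CPM, with 1.69 in C3, 0.472 in E5 and 0.391 in J2, against 0, 0.272 and 5.43 CPM. Its log2 fold change of 3.75 ± 0.65 (edgeR, adjusted p = 0.000236) became 0.40 without E3 (adjusted p = 0.941).

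**Figure D1:**
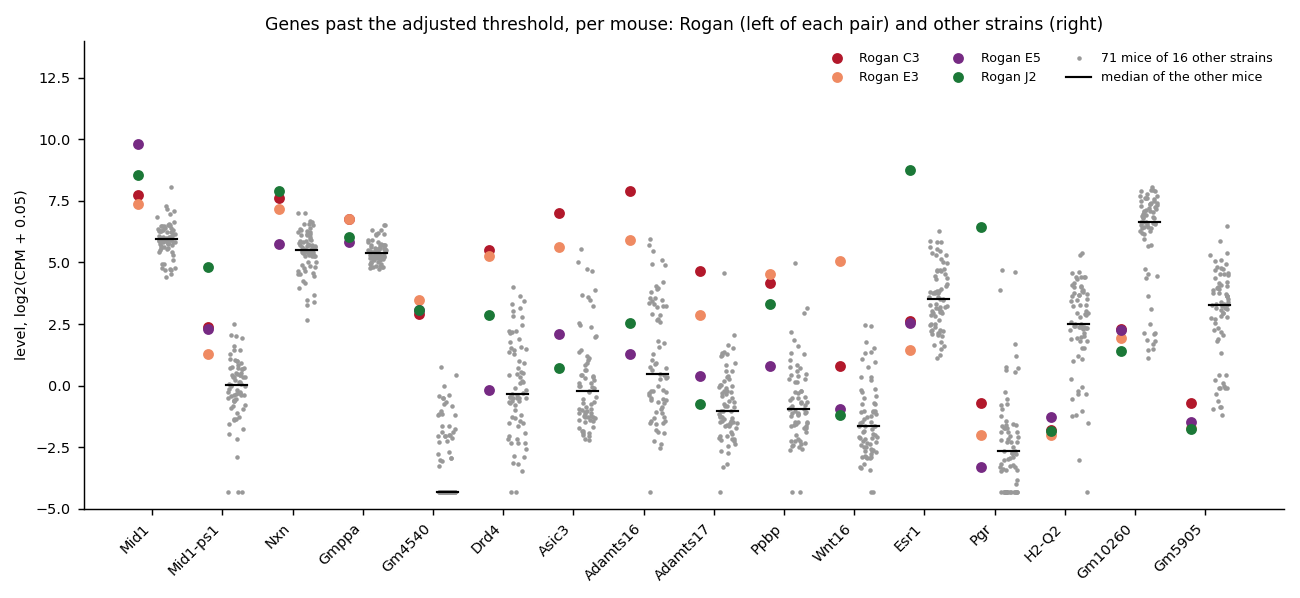
Level of 16 genes that passed the adjusted threshold, as log2(CPM + 0.05), with the 4 Rogan mice as coloured points left of the 71 other mice in grey and the median of the other mice as a black line. All 4 Rogan mice lay above every other mouse for Gm4540, and 1 Rogan mouse alone was high for Wnt16 (E3), Esr1 and Pgr (J2).

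Most of the calls were lost when 1 or another Rogan mouse was left out. Of the 43 genes that rose, 22 had all 4 Rogan mice above the median of the other mice, and in 12 a single Rogan mouse held over 80% of the Rogan sum. The highest Rogan mouse was C3 for 17 of them, E3 for 14, J2 for 7 and E5 for 5. Examples of genes carried by C3, singled out after their values were seen, were Itm2a, a membrane protein gene, at 1847 CPM in C3 and 7.14, 12.9 and 9.88 CPM in E3, E5 and J2, and Drd5, a dopamine receptor gene, at 20.5 CPM in C3 and 0 in the other Rogan mice. The counts of genes called without each Rogan mouse were 23 without C3, 33 without E3, 56 without E5 and 38 without J2, and 7 of the 43 genes that rose passed in each of these fits. Of these 7, Mid1, Bfsp1, Bcan and the pseudogenes Gmfg-ps, Gm4540 and Gm7065 also passed in limma-voom and DESeq2, and Gm9791 missed the threshold in DESeq2 (adjusted p = 0.074). Such fits also hold fewer Rogan mice, so a lost call need not mean a changed fold change. The pseudogene Gm5846, singled out after its values were seen, passed in none of them, with log2 fold changes of 3.34 to 3.72, against 3.45 with all 4 mice.

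Bfsp1 and Bcan, named after their values were seen, passed in all 3 tools although E5 was low. Bfsp1 (ENSMUSG00000027420, chromosome 2, 143826528 to 143863173, minus strand), which encodes filensin, an intermediate filament protein of the eye lens, stood at 3.57 CPM in C3, 52.997 in E3, 1.10 in E5 and 25.3 in J2, against 0.127, 1.36 and 7.54 CPM as the lowest, median and highest of the other mice. E3 and J2 lay above all 71 other mice and E5 lay below their median. Its log2 fold change was 3.51 ± 0.46 (edgeR, adjusted p = 1.27e-07), and without 1 Rogan mouse it was 2.48 to 3.91. Bcan (ENSMUSG00000004892, chromosome 3, 87987531 to 88000230, minus strand), which encodes brevican, a proteoglycan of brain matrix, stood at 11.4, 2.36, 0.105 and 7.65 CPM in C3, E3, E5 and J2, against 0, 0.117 and 3.95 CPM. C3 and J2 lay above all 71 other mice, and E5 lay below their median. Its log2 fold change was 4.54 ± 0.60 (edgeR, adjusted p = 1.49e-07), and without 1 Rogan mouse it was 3.89 to 4.96.

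In 3 genes all 4 Rogan mice lay above all 71 other mice (0.0153% of 19628 genes), and in none did they lie below them all (0.0%). Each of the 3, named after their values were seen, is a processed pseudogene, a copy of a transcript inserted back into the genome, and its count is uncertain because it shares sequence with its parent. Gmfg-ps (ENSMUSG00000083041, chromosome 6, 4893352 to 4893778, minus strand) stood at 1.92, 1.81, 3.46 and 1.38 CPM in C3, E3, E5 and J2, while the other mice had a median of 0 and reached 0.134 CPM. Gm4540 (ENSMUSG00000092072, chromosome 3, 106034664 to 106035092, plus strand) stood at 7.37, 11.01, 8.29 and 8.35 CPM, while the others reached 1.66 CPM with a median of 0. Gm7065 (ENSMUSG00000113469, chromosome 13, 64703158 to 64703631, plus strand) stood at 1.13, 0.805, 0.63 and 0.7 CPM, against 0.0281 and 0.49 CPM.

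These pseudogenes were steady within Rogan where most called genes were not. The log2 CPM of Gm4540 varied by an SD of 0.24 over the 4 Rogan mice around a mean of 3.12, against -0.47 in CC046, the next strain. In the excluded library C3 Tu2 Gm4540 stood at 0.226 CPM and Gmfg-ps at 0, while C3 Tu1 held 7.29 and 1.90 CPM.

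The 5 genes that fell were H2-Q2 and 4 predicted genes or pseudogenes, Gm10260, Gm10704, Gm5905 and Gm14292. H2-Q2 (ENSMUSG00000091705, chromosome 17, 35342242 to 35346762, plus strand) lies in the Qa region of the major histocompatibility complex, whose near-identical members can share reads, so its count is uncertain. It stood at 0.235, 0.201, 0.367 and 0.226 CPM in C3, E3, E5 and J2, against 0, 5.66 and 41.9 CPM as the lowest, median and highest of the other mice, and 68 of the 71 exceeded every Rogan mouse. The log2 fold change was -5.12 ± 1.23 (edgeR, adjusted p = 0.0386). The low level was shared with CC040, whose mean log2 CPM was -2.09 ± 1.65 (SD, n = 4), beside -1.67 ± 0.31 (SD, n = 4) in Rogan, and the other 15 strains averaged between 0.58 and 4.06.

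Gm10260 (ENSMUSG00000069117, chromosome 13, 97760072 to 97760632, minus strand), annotated as protein coding, stood at 4.88, 3.77, 4.72 and 2.57 CPM in C3, E3, E5 and J2, against 2.11, 101 and 267 CPM in the other mice. CC059 and CC040 were also low, with mean log2 CPM of 1.73 and 2.37 beside 1.98 in Rogan. The log2 fold changes of Gm10260, Gm10704, Gm5905 and Gm14292 were -4.78, -5.62, -5.29 and -6.35 (edgeR, adjusted p of 0.0244, 0.0331, 0.0407 and 0.0486). H2-Q2, Gm10260, Gm10704 and Gm5905 lost their calls without any 1 of the Rogan mice, H2-Q2 with adjusted p of 0.0984 to 0.281. Their fold changes stayed near those above in these fits. They were -5.32 to -5.01 for H2-Q2, -4.88 to -4.61 for Gm10260, -5.91 to -5.32 for Gm10704 and -5.61 to -5.14 for Gm5905. With the 6 doubtful libraries H2-Q2 had a log2 fold change of -3.63 (adjusted p = 0.384), and without CC059, LOX or TAS its adjusted p was 0.0506 to 0.0579. None of the 5 genes passed in limma-voom, while all 5 passed in DESeq2. In C3 Tu2, left out, H2-Q2 stood at 4.53 CPM and Gm10260 at 238 CPM, against 0.232 and 4.83 CPM in C3 Tu1.

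**Figure D2:**
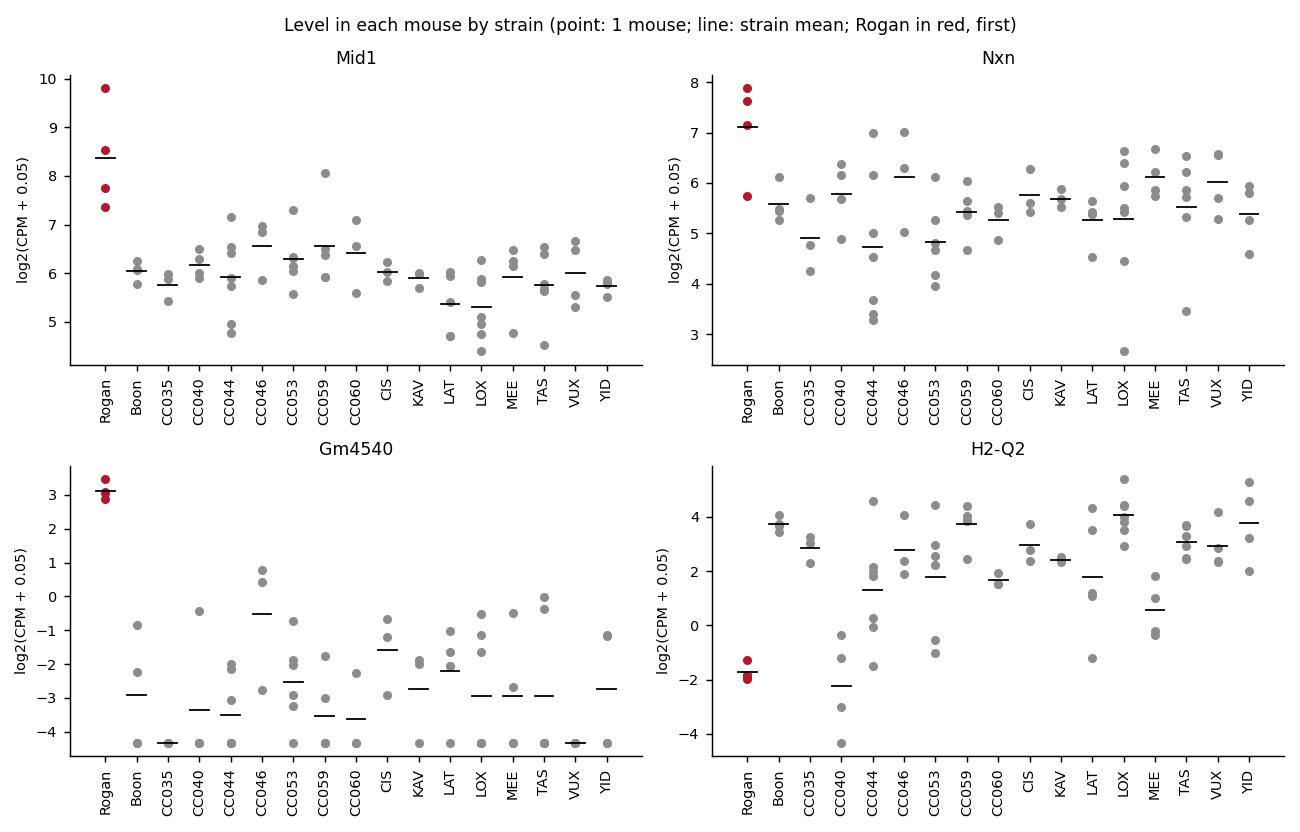
Level of Mid1, Nxn, Gm4540 and H2-Q2 in each mouse, as log2(CPM + 0.05), by strain, with Rogan first in red and a line at each strain mean. Rogan has the highest strain mean for Mid1, Nxn and Gm4540, and for H2-Q2 it is low together with CC040.

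Over the whole transcriptome the number of genes with an extreme Rogan mean was in the middle of the panel. The Rogan mean was the highest of the 17 strain means in 735 genes (3.74%) and the lowest in 703 (3.58%), and by the sum of both, 1438 genes, Rogan ranked 10th of the 17 strains, against 5616 genes in CC040, which had most, and 817 in CC059, which had fewest. The other strains held 3 to 7 mice each, and means of fewer mice vary more, which the ranking does not correct for. Among the other strains with 4 mice, as in Rogan, the sums were 859 (MEE) to 5616 (CC040). The correlation of log2 CPM between 2 Rogan mice, over 13024 genes, had a median of 0.846 (6 pairs), against 0.805 between a Rogan mouse and a mouse of another strain (284 pairs) and 0.823 between mice of the same strain elsewhere (137 pairs). All these values share genes and mice and are given as a description.

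The tumours of J2 show how far 2 samples of 1 mouse differ. Their correlation over the same genes was 0.945, and 609 of 13024 genes differed at least 2-fold, against 2097 to 4331 genes between tumours of different Rogan mice. The genes that differed most at a level of 50 CPM or more included many of skeletal muscle, such as the actin gene Acta1 at 9.97 CPM in Tu1 and 3618 in Tu2. Mid1 stood at 486 and 281 CPM in J2 Tu1 and Tu2, and Nxn at 234 and 242 CPM.

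Collagen and contractile genes had positive medians, but none of their members passed the adjusted threshold with edgeR. Of 27 tested genes of collagens and fibrillar matrix, 0 passed with edgeR in either direction, with 9 at an unadjusted p under 0.05, all higher, against 3.16% higher and 4.87% lower among all genes tested. The median log2 fold change was 1.03, and 26 of the 27 were above 0. In limma-voom 0 passed and in DESeq2 0 passed. With each other strain weighted equally 1 passed, higher in Rogan, against 1.91% of all genes tested.

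Col1a1 (ENSMUSG00000001506, chromosome 11, 94936224 to 94953042, plus strand), the main chain of type I collagen, stood at 38175 CPM in C3, 14016 in E3, 6393 in E5 and 19225 in J2, against 104.6, 4530.2 and 34420 CPM as the lowest, median and highest of the other mice. C3 had the highest level of the 75 mice, and 23 other mice exceeded E5. The log2 fold change was 1.76 ± 0.64 (edgeR, adjusted p = 0.498). Col1a2, the second chain, stood at 34220.1 CPM in C3, 16291.5 in E3, 4243 in E5 and 13512 in J2, against 107, 3227 and 23536 CPM (log2 fold change 1.88 ± 0.61, adjusted p = 0.321).

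Col3a1 and Sparc were likewise highest in C3 and lowest in E5 among the Rogan mice. Col3a1, of type III collagen, stood at 36696 CPM in C3 and 12458 in E5, against a median of 4547 CPM, and Sparc, a collagen-binding protein gene, at 12068 in C3 and 3453 in E5, against 2190.4 CPM. Col6a2 was instead highest in J2, at 8123 CPM, while the other mice reached 2919 CPM at most. By the mean of centred log2 CPM over the list, C3 ranked first of the 75 mice, J2 4th, E3 12th and E5 26th, and Rogan had the highest of the 17 strain means. For Col1a1 alone CC046 was close to Rogan, with mean log2 CPM of 13.97 ± 1.07 in Rogan (SD, n = 4) and 13.93 ± 1.08 in CC046 (SD, n = 3). Dcn and Lum, small proteoglycans of the same list, stood at 82.8 and 60.1 CPM in E3, against medians of 825 and 196 CPM.

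Smooth muscle and myofibroblast genes had a median log2 fold change of 1.19 over 12 tested members, 11 of them above 0. None passed with edgeR, and 3 (Acta2, Lmod1 and Actg2) were higher at an unadjusted p under 0.05, against 3.16% of all genes tested. Actg2 passed in limma-voom (adjusted p = 0.025) and Lmod1 in DESeq2 (adjusted p = 0.0269). With each other strain weighted equally 3 passed, all higher, against 1.91% of all genes tested. Acta2 (ENSMUSG00000035783, chromosome 19, 34241090 to 34255590, minus strand), the actin of smooth muscle and activated fibroblasts, stood at 308 CPM in C3, 3232 in E3, 76.4 in E5 and 192 in J2, against 13.7, 99.97 and 3281 CPM. E3 exceeded all but 1 of the other mice, KAV-G2, and E5 lay below the median. The log2 fold change of 2.04 ± 0.71 (edgeR, adjusted p = 0.439) turned to -0.24 without E3 (adjusted p = 0.966).

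Actg2, the actin of visceral smooth muscle, stood at 17.7, 544, 4.15 and 118 CPM in C3, E3, E5 and J2, against 0.758, 3.66 and 963 CPM (log2 fold change 2.60 ± 0.96, adjusted p = 0.51). By the mean over the list E3 ranked 2nd of the 75 mice, J2 4th, C3 20th and E5 39th. The erythroid list (haemoglobins) also had a positive median, 1.14, with E5 highest of the 4, where Hba-a2 stood at 1579.5 CPM, against 2.93, 66.2 and 805 CPM in the other mice. Hba-a2 shares reads with its near-identical copy Hba-a1, so its count is uncertain. Endothelial genes had a median of 0.63 with 14 of 16 members above 0 and 0 called, and E3 ranked 2nd of the 75 mice.

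**Figure D3:**
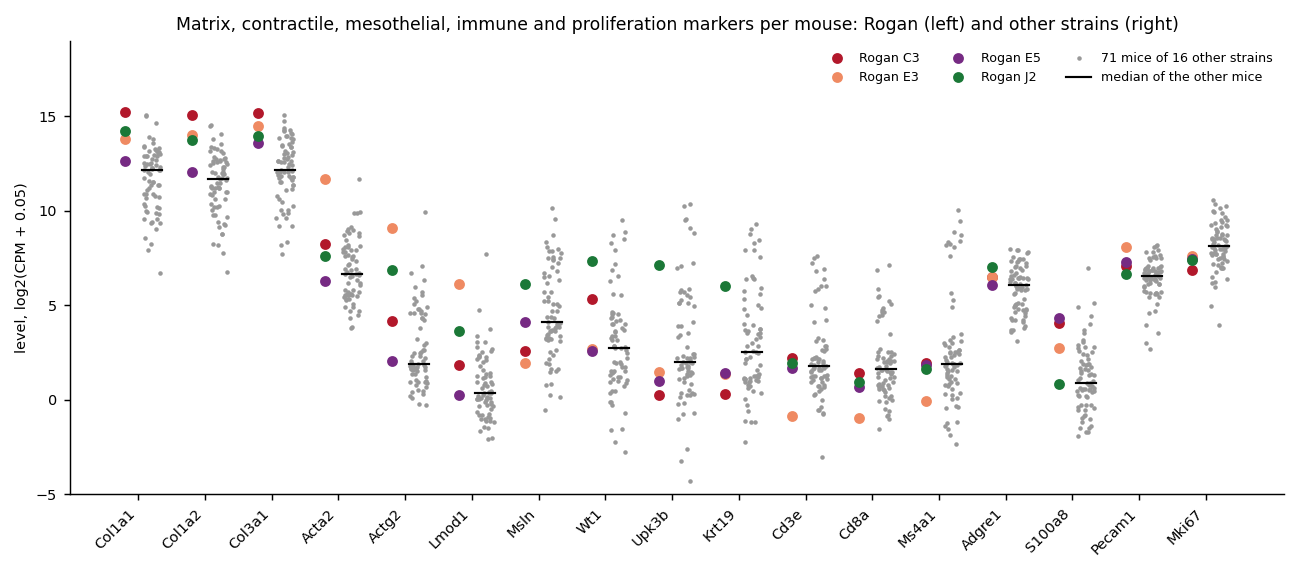
Level of matrix, contractile, mesothelial, immune, endothelial and proliferation markers, as log2(CPM + 0.05), in the 4 Rogan mice (coloured, left) and the 71 other mice (grey, right, with their median). Rogan mice lie above the other median for Col1a1, Col1a2 and Col3a1, and J2 alone among them is high for Upk3b and Krt19.

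Mesothelial markers, which check the labelled origin, differed from mouse to mouse within Rogan. Msln, the gene of mesothelin, stood at 5.87 CPM in C3, 3.82 in E3, 17.005 in E5 and 69.7 in J2, against 0.644, 17.2 and 1144 CPM in the other mice. Upk3b and Krt19 stood at 139 and 65.4 CPM in J2 and between 1.13 and 2.66 CPM in the other 3 Rogan mice, against medians of 3.93 and 5.79 CPM. Wt1, the transcription factor gene used to diagnose mesothelioma, stood at 39.6, 6.44, 5.83 and 164 CPM in C3, E3, E5 and J2, against a median of 6.72 CPM. Krt8, a keratin of simple epithelia, was highest in E5 at 1511 CPM and lowest in E3 at 1.96 CPM, below every other mouse.

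None of the 20 mesothelial genes passed in either direction, with 0 at an unadjusted p under 0.05 (edgeR) and 0 called by limma-voom or DESeq2. Their median log2 fold change was -1.17 in edgeR but 0.12 in limma-voom, and the median difference of group medians was -0.39, so the list has no direction that both fits share. By the mean over the list J2 ranked 9th of the 75 mice while E5, C3 and E3 ranked 40th, 57th and 60th. By the summed level E5 was the highest Rogan mouse, with 2496 CPM beside 492, 541 and 1578 CPM in C3, E3 and J2, against a median of 811 CPM in the other mice. The 18 mesenchymal markers had a median of 0.05 and none passed.

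Esr1 and Pgr, the receptors for oestrogen and progesterone, were high in J2 and in no other Rogan mouse. Esr1 (ENSMUSG00000019768, chromosome 10, 4611593 to 5005614, plus strand) stood at 428 CPM in J2, and at 6.15, 2.72 and 5.77 CPM in C3, E3 and E5, against 2.10, 11.3 and 77.6 CPM in the other mice. Pgr (ENSMUSG00000031870, chromosome 9, 8899833 to 8968611, plus strand) stood at 87.5 CPM in J2, and at 0.563, 0.201 and 0.0525 CPM in C3, E3 and E5, against 0, 0.108 and 26.2 CPM. J2 exceeded every other mouse in both genes, and the other 3 Rogan mice lay below the other median of Esr1.

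Both tumours of J2 carried the signal, Esr1 with 498 CPM in Tu1 and 374 in Tu2 and Pgr with 132 and 51.4 CPM. The log2 fold changes of 2.68 ± 0.54 and 4.19 ± 1.03 (edgeR, adjusted p of 0.00456 and 0.0496) turned to -1.81 and -2.09 without J2 (adjusted p of 0.61 and 0.722). Pgr also missed the threshold without C3 (adjusted p = 0.0586), without 12 of the other strains in turn and with the doubtful libraries (adjusted p = 0.0684). With edgeR they were the 2 called of 686 members of the 42 gene lists (0.292%, near the 0.245% of all genes tested), and both belong to the list of reproductive tract genes. Neither passed in limma-voom (adjusted p of 0.823 for Esr1 and 0.387 for Pgr), and DESeq2 gave neither an adjusted p. The seminal vesicle genes of that list were at 0 in C3, E3 and J2 and present in E5, with Svs5 at 194 CPM, while the other mice had a median of 0 and reached 76955 CPM (LOX-B4). The oviduct gene Ovgp1 stood at 1.05 CPM in J2, against a median of 2.32 CPM. Whether attached reproductive tissue has a part in the Esr1 and Pgr levels of J2 was not tested.

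**Figure D4:**
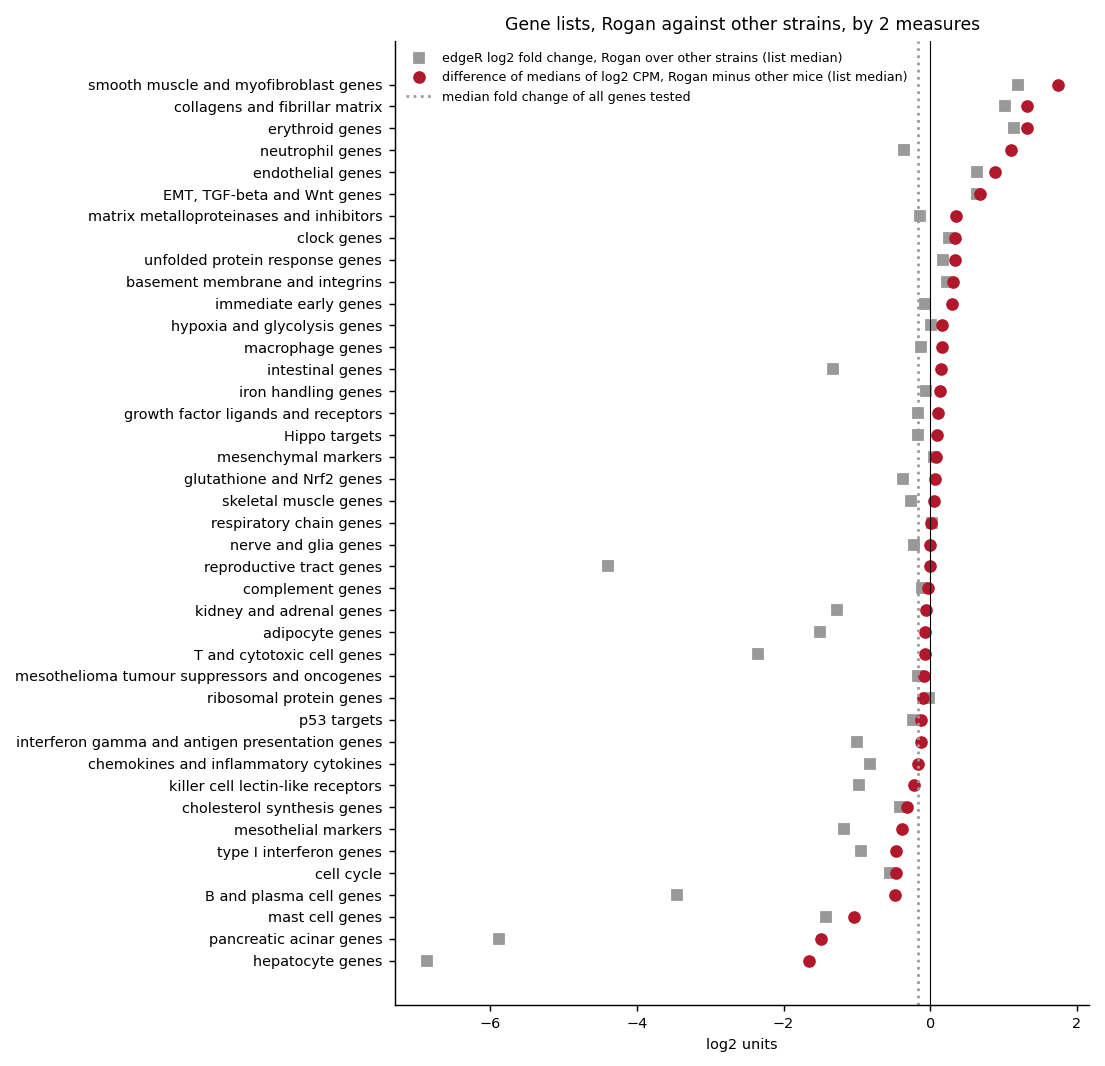
Median over each gene list but 1 of the edgeR log2 fold change, Rogan over other strains (grey squares), and of the difference between group medians of log2 CPM, Rogan minus other mice (red circles). The list of Y-linked genes and Xist is not drawn. Its 4 tested genes had a median log2 fold change of 0.50 and a median difference of group medians of 2.11. Contractile and collagen lists are positive on both scales, whereas T cell, B cell, hepatocyte and reproductive lists lie further below 0 on the fold change, which follows means.

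The fold changes of lymphocyte genes were negative, while the difference of group medians was small. Of 24 tested T and cytotoxic cell genes, 0 passed with edgeR, limma-voom or DESeq2. At an unadjusted p under 0.05 (edgeR) 3 were lower (Cd8a, Gzmb and Nkg7), against 4.87% of all genes tested. The median log2 fold change of the list was -2.35, while the median difference of group medians was -0.07. Cd3e, a chain of the T cell receptor complex, stood at 4.599, 0.503, 3.15 and 3.74 CPM in C3, E3, E5 and J2, against 0.0733, 3.36 and 197 CPM. E3 ranked 74th of the 75 mice for the list, and C3, J2 and E5 ranked 26th, 27th and 33rd.

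The cytotoxic genes Gzmb and Nkg7 stood at 0 and 0.101 CPM in E3 and at most 1.52 and 1.78 CPM in the other Rogan mice, against medians of 1.77 and 2.11 CPM. B and plasma cell genes showed the same contrast between measures, with a median log2 fold change of -3.46 and a difference of group medians of -0.47, and 0 of 16 passed. Macrophage genes had a median log2 fold change of -0.13 in edgeR and 0.23 in limma-voom, with 0 of 20 called. Neutrophil genes had a median log2 fold change of -0.36 and a difference of medians of 1.10. Only 6 of the 13 tested had a log2 fold change above 0, and 0 passed (edgeR). S100a9, 1 of these 6, stood at 42.8, 12.6, 49.9 and 4.44 CPM in C3, E3, E5 and J2, against 0.359, 3.34 and 188 CPM.

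Levels of other tissues' genes are given beside these values. The 17 hepatocyte genes had a median log2 fold change of -6.87 with 0 called (edgeR). At an unadjusted p under 0.05 15 of them were lower, against 4.87% of all genes tested. But the summed level of the list was 61.4, 4.98, 146.1 and 73.1 CPM in C3, E3, E5 and J2, against 5.73, 242 and 370657 CPM, the highest in TAS-I1. The 15 skeletal muscle genes summed to 6023 CPM in J2 and to 23.6 to 129 CPM in the other Rogan mice, against a median of 82.6 CPM. Without the libraries over 1% of another tissue the median log2 fold change of hepatocyte genes was -2.51 (edgeR). That of skeletal muscle genes was -2.92, against -0.26 with all libraries. In that fit 32 of the 43 genes that rose and 2 of the 5 that fell kept their calls. Whether these tissues account for the lost calls was not tested.

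Proliferation genes were on the low side in Rogan without passing. Of 30 cell cycle genes 28 had a log2 fold change below 0, with a median of -0.55, 0 passed and 0 had an unadjusted p under 0.05 (edgeR, with 0 called by limma-voom and DESeq2). Of all 19628 genes tested, 7073 had a log2 fold change above 0, and the median was -0.17. By the mean over the list C3, E3, E5 and J2 ranked 57th, 55th, 42nd and 53rd of the 75 mice. Rogan ranked 12th of the 17 strains. Mki67, the proliferation antigen, stood at 118, 195, 176 and 165 CPM in C3, E3, E5 and J2, against 15.4, 280 and 1493 CPM, and all 4 Rogan mice were below the other median.

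Genes altered in mesothelioma varied widely among the Rogan mice. Cdkn2a, the locus of the p16 and p19 tumour suppressors, stood at 112 CPM in C3 and 122 in J2 but at 1.41 in E3 and 4.46 in E5, against 0.147, 4.16 and 566 CPM in the other mice (log2 fold change 0.08 ± 1.52, adjusted p = 0.957). Cdkn2b, its neighbour, split the Rogan mice likewise, at 29.6 and 27.1 CPM in C3 and J2 and 2.72 and 1.99 CPM in E3 and E5. Trp53 stood at 17.7 CPM in J2 and 116, 76.6 and 102 CPM in C3, E3 and E5, against a median of 103 CPM. Met, the receptor of hepatocyte growth factor, reached 2307 CPM in E5, with 455, 20.3 and 47.3 CPM in C3, E3 and J2, against a median of 116 CPM. None of the 16 genes of this list passed.

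Iron handling genes, chosen as a list because crocidolite carries iron, had 5 of 16 tested members at an unadjusted p under 0.05, 2 higher and 3 lower (edgeR). Among all genes tested 3.16% were higher and 4.87% lower at that p. None of the iron handling genes passed with edgeR, limma-voom or DESeq2. Tfrc, the transferrin receptor, stood at 15.7, 6.89, 21.05 and 45.1 CPM in C3, E3, E5 and J2, against 13.2, 58.9 and 498 CPM, the lowest of the 17 strain means (log2 fold change -1.87 ± 0.64, adjusted p = 0.409). Slc40a1, the iron exporter ferroportin, was high in C3 and E3 at 194 and 317 CPM and stood at 8.76 and 4.28 CPM in E5 and J2, against a median of 11.5 CPM. Hmox1, haem oxygenase, reached 1249.8 CPM in E3, with 65.6, 195.5 and 83.1 CPM in C3, E5 and J2, against a median of 73.7 CPM.

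None of the 48 called genes had a nearest tested neighbour called in the same direction. As 0.245% of all genes tested were called, few such neighbours would be found among randomly placed genes. The count of 0 therefore cannot show how called genes lie on the chromosomes. The rule was then relaxed, after the data had been seen, to an unadjusted p under 0.05 with all 4 Rogan mice on 1 side of the other median. By it 765 genes were lower (3.9% of all genes tested) and 351 were higher (1.79%). Of the 1112 such genes with a position, 121 (10.9%) had a nearest neighbour of the same kind. The longest runs held 4 genes, Speg, Gmppa, Chpf and Obsl1 on chromosome 1 (75375297 to 75506452), all higher, Ercc8, Elovl7, Gm8990 and Depdc1b on chromosome 13, all lower, and Trpc1, Pls1, Atr and Xrn1 on chromosome 9 (95705082 to 96057803), all lower.

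Among 415 windows of 5 Mb with at least 15 tested genes, the share of lower genes was highest at 95 to 100 Mb of chromosome 9, with 14 of 40 genes (35.0%), and the next 5 Mb held 7 of 31 genes (22.6%). No gene of these 10 Mb of chromosome 9 was higher by the same rule. Together 21 of 71 genes were lower (29.6%, against 3.8% elsewhere), 59 had a log2 fold change below 0, the median was -0.62, and none passed the adjusted threshold. Fold changes leaned below 0 over all 19628 genes tested too, with 7073 above 0 and a median of -0.17. The region was picked for its share, so these values are a description.

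Of the genes of the region, 4 are described here, chosen after their values were seen. Atr, the checkpoint kinase of replication stress, stood at 23.1, 21.5, 10.02 and 18.1 CPM in C3, E3, E5 and J2, against 13.04, 32.8 and 82.4 CPM in the other mice (log2 fold change -1.004 ± 0.300, edgeR, adjusted p = 0.216). Xrn1, a cytoplasmic exoribonuclease, stood at 52.1, 47.7, 23.9 and 48.6 CPM, against 34.2, 69.4 and 123 CPM (-0.75 ± 0.22, adjusted p = 0.201). In both genes every Rogan mouse was below the other median and E5 was below every other mouse. The low level was shared with CC046, whose mean log2 CPM of Atr was 3.98, beside 4.12 in Rogan, and of Xrn1 5.59, beside 5.37 in Rogan.

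Rnf7, a subunit of ubiquitin ligases, stood at 34.5, 37.8, 19.8 and 20.4 CPM in C3, E3, E5 and J2, against 24.2, 43.2 and 85.5 CPM (-0.65 ± 0.18, adjusted p = 0.152). Pik3cb, a catalytic subunit of PI3 kinase, stood at 19.8, 19.3, 15.2 and 16.7 CPM, against 12.9, 34.2 and 87.7 CPM (-1.16 ± 0.37, adjusted p = 0.322). Over the 71 genes the median difference of a mouse from the other median was -0.29 in C3, -0.24 in E3, -0.69 in E5 and -0.25 in J2 (log2), against -0.47 to 0.32 in the other mice, 5 of which lay below the highest Rogan mouse. Rogan had the lowest strain mean in 15 of the 71 genes, against 12 in the next strain and a median of 2.5 over the other strains. Without E5 the number of these genes lower at an unadjusted p under 0.05 was 8, against 22 with it, and the median log2 fold change was -0.46.

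**Figure D5:**
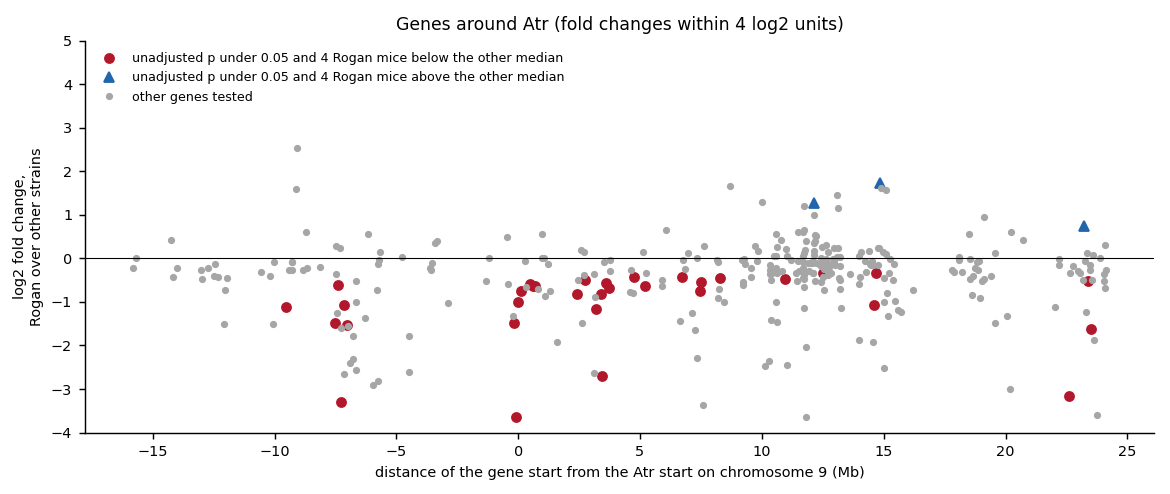
Log2 fold change, Rogan over other strains, of genes around Atr on chromosome 9 by the distance of their start from the Atr start in Mb, with genes at an unadjusted p under 0.05 and all 4 Rogan mice on 1 side of the other median marked in red (lower) and blue (higher). The marked genes nearest to Atr on both sides are lower, and 6 genes lie outside the axis.

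The Rogan mice were few and were set against a mixture of strains. The test treats 71 mice of 16 strains as independent although mice of 1 strain share a genome. With each other strain weighted equally and the spread taken within strains 375 genes were higher (1.91%) and 40 lower (0.204%). That fit leaves the differences among the other strains out of the spread. Its larger counts therefore do not show that Rogan differs more than other strains do. Rogan strain and survival above the median cannot be told apart within Rogan, and against the 48 other mice above the median 31 genes were higher (0.163%) and 2 lower (0.0105%), 27 and 2 of them shared with the calls above.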

How the data were processed

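Values are estimated counts per gene, deposited by the authors as whole numbers without normalization (36118 genes, of which 35825 have a symbol and GRCm38 position from GENCODE M21). Per the submitters' processing notes kallisto 0.46.1 and GRCm38 were used, and DESeq and DESeq2 are named. No source used here gives their settings. Per the labels' protocols the libraries were strand-specific mRNA. A second deposited table equals the first in all 3682183 cells of its 22049 genes and was not used, nor were 56 columns of other strains.

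Counts were summed over the tumours of a mouse, scaled by TMM, filtered with filterByExpr, and compared by a two-sided quasi-likelihood test (edgeR 4.0.16, R 4.3.3), 4 Rogan mice against 71 others. The threshold was a p of 0.05 after Benjamini-Hochberg adjustment over all 19628 genes. The fit was run on simulated counts in which the other strains did not differ from each other. That run therefore cannot show how the test behaves with the strain differences present here. SE is the fold change divided by the root of F. Depth limits a low level, and such limits cover counting error only. The median biological coefficient of variation was 63.0%. Log2 CPM used a prior count of 2. DESeq2 1.42.0 and limma 3.58.1 (voom) were alternatives. Figures used matplotlib 3.10.9.

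Named genes passed, changed by 1 or more on the log2 scale, and had a mean of at least 5 CPM in 1 group, all 4 Rogan mice on 1 side of the other median and medians at least 1 log2 unit apart: up to 12 per direction with ordinary symbols and 3 with a pseudogene suffix, and also up to 4 called members of each list, and Col1a1 and Acta2. The 42 lists were described by counts and medians, without set tests. The strain, the lists and the rules were chosen with earlier results of these data known. The labels do not say that mice of a strain came from separate litters, so p-values measure the spread between these mice. In the main fit that spread is estimated over all 75 mice and also holds the differences between the other strains. Rogan is 1 strain, so the test asks whether these 4 mice differ from the others and has no replicate at the level of strain. The lists without a result above (basement membrane, metalloproteinases, mast cells, interferon genes, lectin-like receptors, chemokines, complement, hypoxia, respiratory chain, cholesterol, glutathione, p53 and Hippo targets, TGF-beta and Wnt, growth factors, unfolded protein, immediate early, ribosomal and clock genes, and pancreatic, fat, gut, kidney, nerve and sex-linked genes) held 0 called genes each with edgeR, limma-voom and DESeq2. With each other strain weighted equally, 1 of 25 glutathione and 2 of 20 ribosomal genes were called, all higher, against 1.91% of all genes tested.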

Additional observations from a re-analysis of the deposited data

Results flagged for a closer look

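In 6 of 56 named genes and lists tested, 1 Rogan mouse lay apart from the other 3, its gap to the nearest being too large a part of the group's range by Dixon's 95% critical value. Chance flags about 1 in 20 such groups. Esr1 had a ratio of 0.84 with J2 high, at 428 CPM. The mean of T and cytotoxic cell genes had a ratio of 0.937 with E3 low, at -3.00 log2 units from the mean of all mice, beside -0.16, -0.34 and -0.18 in C3, E5 and J2. Macrophage genes had a ratio of 0.868 with C3 low, at -0.23. Growth factor ligands and receptors had a ratio of 0.9 with C3 high, at 0.44, pancreatic acinar genes 0.87 with E5 high, at 2.71, and nerve and glia genes 0.886 with J2 high, at 1.19.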

How the results depend on the processing

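The 48 calls became 103 without a filter on low counts (98 higher and 5 lower, of 31581 genes), 91 in DESeq2 (23 and 68), 105 in limma-voom (102 and 3), 415 with each other strain weighted equally and 23 (all higher) with the 6 libraries of doubtful strain. Of the 43 genes that rose, 24 also passed in limma-voom and 20 in DESeq2. Leaving out a Rogan mouse gave 23 to 56 calls, and leaving out another strain, late library numbers or libraries with other tissue, or using RLE or robust dispersion, gave counts within 1.5 times of 48. The genes called were not all the same. Without late library numbers 29 of the 43 higher calls and 0 of the 5 lower calls, H2-Q2 included, were kept. Without libraries with other tissue 32 and 2 were kept. Genes with no overlap numbered 3 to 6 without 1 Rogan mouse (6 without E5, 5 without C3). The 0 neighbouring calls became 121 under the relaxed rule, chosen after the data were seen. Without 1 Rogan mouse the log2 fold change ranged over -1.81 to 3.11 for Esr1, -2.09 to 4.65 for Pgr (both below 0 without J2) and -0.24 to 2.43 for Acta2 (below 0 without E3). Acta2 was also at -0.25 without the late library numbers, which include E3. Mid1 and Col1a1 kept their side of the threshold in all 31 alternatives. No paired analysis was possible because replicate numbers were given in accession order and pair no mice. The number of Rogan mice, 4, limits all values, and the cause of these changes was not tested.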
